A study of Mus musculus with 12 samples.

Results

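The 9 genes described here write, read or erase DNA methylation: *Dnmt1*, *Dnmt3a*, *Dnmt3b*, *Mbd2*, *Uhrf1*, *Tet2*, *Tet3*, *Gadd45a* and *Gadd45g*. They were listed by symbol, with no threshold on their values, and all 9 had 1 probeset of their own among the 14860 genes measured on Affymetrix Mouse Exon 1.0 ST arrays. Each array held neocortical RNA of 1 mouse embryo, dissected at E14.5 (embryonic day). There were 4 *Tbr1* KO embryos, which carry the knockout of *Tbr1*, and 2 *Tbr2* cKO embryos, in which the conditional *Tbr2* allele is deleted by *Nes11*-Cre, a Cre driven by the Nestin promoter of neural progenitors. A further 3 *Tbr1/2* dKO embryos combined both mutations (*Tbr1*-/-;*Tbr2* 2F/2F;*Nes11*-Cre), and 3 control embryos were wild type for *Tbr1* with the *Tbr2* allele not recombined. The embryos are biological replicates, independent of each other. The sample labels call the controls wild type without naming a gene, whereas the paper limits wild type to *Tbr1* and describes *Tbr2* as not recombined. These wordings do not settle whether the controls carried Cre or floxed alleles. Values are on the log2 scale, as deposited after RMA normalization, so that a difference of 1 is a doubling of signal.

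DNA methylation is the addition of a methyl group to cytosine, mostly where a guanine follows (CpG), and is commonly linked to gene silencing. Dnmt3a and Dnmt3b place new methyl marks, whereas Dnmt1, guided by Uhrf1, copies them to the new strand after replication. Mbd2 binds methylated CpG and brings the NuRD repressor complex. Tet enzymes oxidise the mark as a step of its removal, and Gadd45 proteins take part in demethylation besides their better known part in growth arrest and stress responses. In the embryonic cortex projection neurons arise from radial glial progenitors, in part through *Tbr2*-expressing intermediate progenitors, and early-born ones express *Tbr1*.

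The targeted genes were lower in every array of the genotypes that lack them than in any control. *Tbr1* was between 9.76 and 10.06 in *Tbr1* KO and between 9.52 and 9.69 in *Tbr1/2* dKO arrays, and controls were at 10.88 to 11.01. *Tbr1* was also below every control in the 2 *Tbr2* cKO arrays, at 10.39 and 10.57, so that *Tbr2* cKO neocortex had reduced *Tbr1* mRNA as well. *Eomes*, the symbol of *Tbr2*, was at 9.185 and 8.202 in the *Tbr2* cKO arrays and between 8.37 and 8.65 in *Tbr1/2* dKO, against 11.70 to 12.13 in controls. The cortical genes *Lhx2* (13.33 to 13.65) and *Emx2* (10.50 to 11.52) were read in all 12 arrays. In 2 embryos, *Tbr2* cKO replicate 1 and *Tbr1/2* dKO replicate 1, the mean of 12 meningeal genes was 8.71 and 8.76, whereas the other 10 arrays lay between 7.61 and 8.01. The *Gadd45a* and *Gadd45g* differences from control are also given without these arrays where they enter. Those of *Dnmt3a* are given as ranges over fits that each leave out 1 array.

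Loss of both factors was accompanied by higher *Dnmt3a* and *Gadd45g* mRNA, where more cells that express a gene and more RNA per cell cannot be told apart in whole neocortex. In *Tbr1/2* dKO neocortex 2 of the 9 genes rose (limma, Benjamini-Hochberg over all genes, threshold 0.05) and none fell, where 1.2% of all genes rose and 1.9% fell. In *Tbr1* KO and *Tbr2* cKO neocortex none of the 9 was called, where 0.619% and 0.653% of all genes were. At an unadjusted p under 0.05, 2 members passed in *Tbr1* KO (*Dnmt3b* higher, *Tet3* lower) and 2 in *Tbr2* cKO (*Dnmt3a* and *Gadd45g*, both higher), where 6.51% and 10% of all genes passed. The same threshold was passed by 4 members in *Tbr1/2* dKO, all higher (*Dnmt3a*, *Mbd2*, *Gadd45a* and *Gadd45g*), while 5.81% of all genes passed in that direction. Over the 9 genes the median log2 difference was 0.02 for *Tbr1* KO, 0.09 for *Tbr2* cKO and 0.14 for *Tbr1/2* dKO, and over all genes it was -0.005, -0.01 and 0.01. All 3 comparisons use the same 3 control arrays, so that they are not independent of each other.

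**Figure D1:**
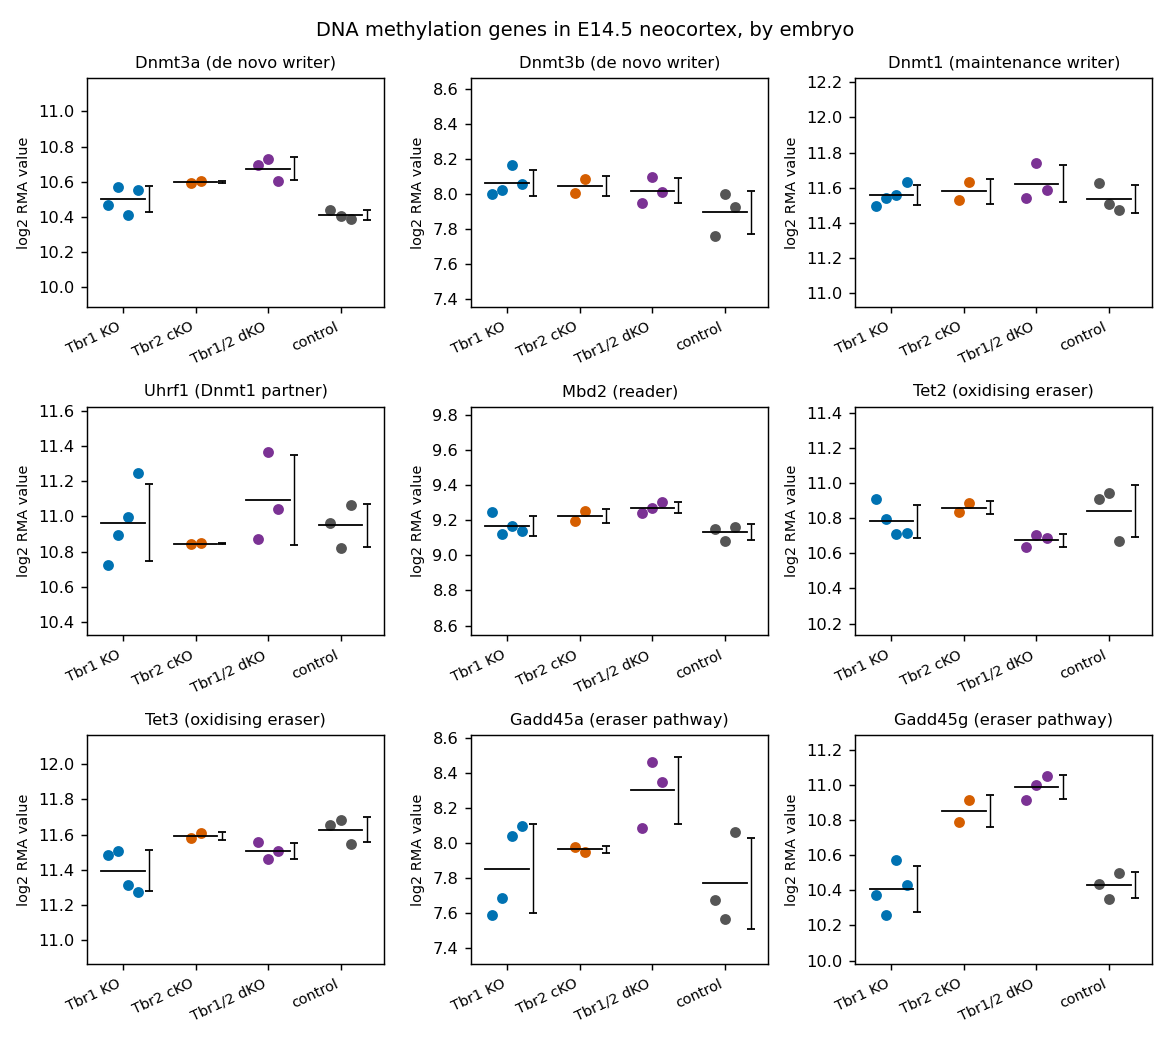
Log2 RMA value of each of the 9 genes (vertical axis, 1.3 log2 units in every panel) in each embryo, with a point for an embryo, a horizontal line for the genotype mean and a bar for ± 1 SD. For *Gadd45g* the *Tbr1/2* dKO and *Tbr2* cKO points lie above all controls and the *Tbr1* KO points spread around them, whereas for *Dnmt1* and *Uhrf1* the genotypes overlap.

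*Dnmt3a*, the main de novo methyltransferase of the brain, was at 10.69, 10.73 and 10.60 in the 3 *Tbr1/2* dKO embryos, against 10.44, 10.40 and 10.39 in controls. The *Tbr2* cKO embryos were at 10.59 and 10.60, and the *Tbr1* KO embryos at 10.47, 10.57, 10.41 and 10.55. Genotype means were ordered *Tbr1/2* dKO, *Tbr2* cKO, *Tbr1* KO and control. The *Tbr1/2* dKO and *Tbr2* cKO embryos did not overlap but nearly touched, *Tbr1* KO and control embryos overlapped, and 3 of 4 *Tbr1* KO embryos were above every control. The *Tbr1/2* dKO increase in *Dnmt3a* was 0.26 (standard error, SE, 0.06, limma adjusted p = 0.034), a ratio of 1.20. The difference was 0.19 (SE 0.07, adjusted p = 0.338) in *Tbr2* cKO and 0.09 (SE 0.05, adjusted p = 0.904) in *Tbr1* KO. Leaving out any 1 of the 12 arrays gave 0.175 to 0.202 in *Tbr2* cKO. The adjusted p in *Tbr1/2* dKO was 0.101 without *Tbr1/2* dKO replicate 1, 0.113 without replicate 2 and 0.092 to 0.118 without any 1 of the controls, with a difference of 0.24 to 0.28 in these fits. Without either *Tbr2* cKO embryo, which enter only through the shared spread, it was 0.0594.

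The step from a single to the double mutant was not called for *Dnmt3a*. *Tbr1/2* dKO embryos exceeded *Tbr1* KO embryos by 0.17 (95% interval 0.05 to 0.29, unadjusted p = 0.00851, adjusted p = 0.223 from limma) and *Tbr2* cKO embryos by 0.08 (95% interval -0.07 to 0.22, adjusted p = 0.963). The double mutant differed from the sum of the single mutants by -0.01 (95% interval -0.20 to 0.18, adjusted p = 0.999). Of all genes, 1.24%, 0.108% and 0.0269% were called in these 3 comparisons. The 3 genes whose deviations from the control mean were closest to those of *Dnmt3a* over the 12 arrays were *Sox21*, *Zfp219* and *Ccnd2*, with root mean square differences of 0.04 to 0.05 log2 units. *Ccnd2* encodes a cyclin of cortical progenitors and *Sox21* a transcription factor of neural progenitors.

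*Dnmt3a* has 3 transcript starts in the RefSeq promoter table (GRCm38.p6), and the 250 bases before the first and the last are shown, since *Dnmt3a* is a member that rose and since CpG are themselves the substrate of its product. CpG are in capitals:
*Dnmt3a* start at chr12:3806730-3806979, plus strand: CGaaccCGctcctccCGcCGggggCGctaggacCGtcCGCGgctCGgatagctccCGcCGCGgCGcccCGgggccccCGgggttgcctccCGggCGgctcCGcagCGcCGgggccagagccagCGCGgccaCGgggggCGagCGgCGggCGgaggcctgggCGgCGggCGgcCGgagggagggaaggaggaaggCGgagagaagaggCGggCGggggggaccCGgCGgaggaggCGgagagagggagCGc
*Dnmt3a* start at chr12:3891494-3891743, plus strand: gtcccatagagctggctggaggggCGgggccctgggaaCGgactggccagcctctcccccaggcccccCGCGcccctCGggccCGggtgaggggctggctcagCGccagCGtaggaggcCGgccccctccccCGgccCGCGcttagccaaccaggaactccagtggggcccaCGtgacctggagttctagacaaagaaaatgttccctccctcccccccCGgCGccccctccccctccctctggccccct
The first holds 38 CpG and the last 15, where the median over all 32851 promoter windows of this length is 6. At least as many CpG were found in 1.88% of all windows for the first and in 27.3% for the last. The deposited values used here give *Dnmt3a* as 1 value for each array, so that the starts cannot be told apart here.

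*Dnmt3b*, the second de novo methyltransferase, was at 8.002, 8.02, 8.16 and 8.06 in *Tbr1* KO, at 8.01 and 8.09 in *Tbr2* cKO and at 7.95, 8.09 and 8.01 in *Tbr1/2* dKO embryos, against 7.76, 8.001 and 7.93 in controls. Every *Tbr1* KO and *Tbr2* cKO embryo lay above every control, although the lowest *Tbr1* KO embryo and the highest control nearly touched. Over all genes, 3.47% in *Tbr1* KO and 10.9% in *Tbr2* cKO were separated in this direction. The difference from control was 0.17 for *Tbr1* KO (SE 0.07, unadjusted p = 0.0356, adjusted p = 0.7 from limma), 0.15 for *Tbr2* cKO (SE 0.08, adjusted p = 0.602) and 0.12 for *Tbr1/2* dKO (SE 0.07, adjusted p = 0.577). All 3 leaned on control replicate 1: without it they were 0.10, 0.08 and 0.06. In contrast to *Dnmt3a*, the double mutant had the smallest of the 3 differences, although its departure from the sum of the single mutants, -0.19, had a 95% interval of -0.43 to 0.04 and was not called (adjusted p = 0.999 from limma).

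*Dnmt1*, the maintenance methyltransferase, was not called in any comparison. The *Tbr1* KO mean was 11.56 ± 0.06 (SD, n = 4), the *Tbr2* cKO mean 11.58 ± 0.07 (SD, n = 2), the *Tbr1/2* dKO mean 11.62 ± 0.11 (SD, n = 3) and the control mean 11.53 ± 0.08 (SD, n = 3). The 95% intervals of the differences from control were -0.12 to 0.17, -0.13 to 0.22 and -0.07 to 0.24, which leave out changes of more than 0.24 log2 units in either direction.

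*Uhrf1*, the partner that brings Dnmt1 to hemimethylated DNA, had ranges within *Tbr1* KO and within *Tbr1/2* dKO that were wider than any difference between genotype means. Values were 10.72, 10.89, 10.99 and 11.24 in *Tbr1* KO, 10.84 and 10.85 in *Tbr2* cKO and 10.87, 11.37 and 11.04 in *Tbr1/2* dKO embryos, against 10.96, 10.82 and 11.07 in controls. The differences from control were 0.01, -0.10 and 0.14 (SEs 0.13, 0.16 and 0.14, adjusted p = 0.994, 0.906 and 0.787 from limma). The last was 0.006 without *Tbr1/2* dKO replicate 2. The spread followed a list of 11 S phase genes, such as *Mcm2* to *Mcm7*. Mean values of that list were 10.14, 10.25, 10.37 and 10.51 in the same 4 *Tbr1* KO embryos, 10.31 and 10.35 in *Tbr2* cKO and 10.26, 10.68 and 10.36 in *Tbr1/2* dKO, against 10.26, 10.18 and 10.32 in controls. In 13 of the 13 pairs of embryos of the same genotype, *Uhrf1* and the S phase list were higher in the same embryo, which was so for 0.787% of all genes. For *Dnmt1* this was so in 11 of the 13 pairs, a count that 8.39% of all genes reached or passed. With the mean of 9 G2 and M phase genes it was so in 11 pairs for *Uhrf1* and in 11 for *Dnmt1* (2.77%), so that the order was not particular to S phase genes. The pairs share embryos, and these counts are a description.

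*Mbd2*, the reader, was at 9.24, 9.27 and 9.30 in *Tbr1/2* dKO, against 9.15, 9.08 and 9.16 in control embryos. The *Tbr2* cKO embryos were at 9.20 and 9.25, and the *Tbr1* KO embryos at 9.25, 9.12, 9.17 and 9.14. All *Tbr1/2* dKO and *Tbr2* cKO embryos were above every control, where 8.58% and 10.9% of all genes were. The gene was not called in any comparison: the difference was 0.14 (95% interval 0.02 to 0.26, adjusted p = 0.28 from limma) in *Tbr1/2* dKO, 0.09 (-0.04 to 0.22, adjusted p = 0.69) in *Tbr2* cKO and 0.04 (-0.07 to 0.15, adjusted p = 0.965) in *Tbr1* KO.

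**Figure D2:**
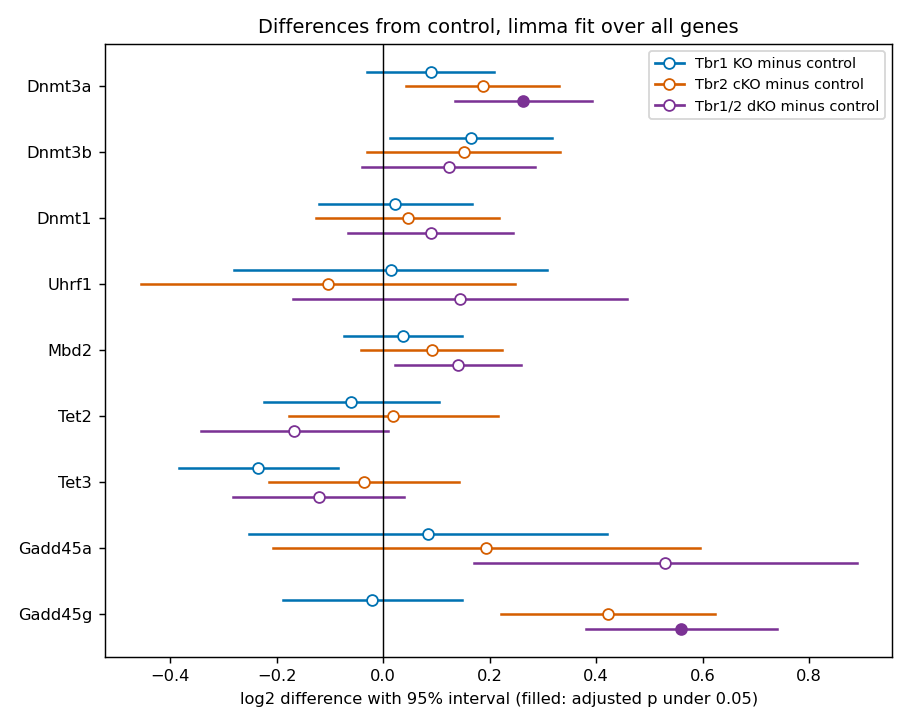
Log2 difference of each mutant from control (horizontal axis) for the 9 genes, with the 95% interval from the limma fit; filled points have an adjusted p under 0.05 over all genes. The filled points are *Dnmt3a* and *Gadd45g* in *Tbr1/2* dKO, and *Tet3* in *Tbr1* KO has the lowest difference, -0.23.

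No member fell at an adjusted p under 0.05, and the lowest differences were those of the Tet genes. *Tet3*, an oxidase of methylated cytosine that is prominent in the nervous system, was at 11.48, 11.51, 11.31 and 11.27 in *Tbr1* KO embryos, all below the controls at 11.66, 11.68 and 11.55. Of all genes, 4.02% were separated in this way. *Tbr1/2* dKO embryos were at 11.56, 11.46 and 11.50, and *Tbr2* cKO embryos at 11.58 and 11.61, which lay among the controls. The *Tbr1* KO difference was -0.23 (95% interval -0.38 to -0.08, unadjusted p = 0.00561), but it was not called over all genes (adjusted p = 0.333 from limma). With array weights it was (-0.30, limma adjusted p = 0.0362). These weights were 1.7 and 1.29 for *Tbr1* KO replicates 3 and 4, which had the lowest *Tet3*, and 0.66 and 0.6 for replicates 1 and 2. Control replicate 3, the lowest control in *Tet3*, had a weight of 0.48. In *Tbr1/2* dKO the difference was -0.12 (SE 0.07, adjusted p = 0.578) and in *Tbr2* cKO -0.04 (SE 0.08, adjusted p = 0.94). *Tet3* was 0.20 higher in *Tbr2* cKO than in *Tbr1* KO embryos (SE 0.08, unadjusted p = 0.0263, adjusted p = 0.316). Its departure from additivity was 0.15 (95% interval -0.09 to 0.38, adjusted p = 0.999). Within genotypes, *Tet3* and the S phase mean were in the same order in 2 of the 13 pairs (98.0% of all genes reached or passed this). With the mean of 9 radial glia genes it was also 2 pairs (98.7%), and with that of 7 postmitotic neuron genes 10 (7.71%). The part of cell numbers in the *Tet3* values was not tested.

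*Tet2*, of the same family, was at 10.63, 10.71 and 10.68 in *Tbr1/2* dKO embryos, against 10.91, 10.94 and 10.67 in controls. Control replicate 3 lay among the *Tbr1/2* dKO embryos, and the groups overlapped. *Tbr1* KO embryos were at 10.91, 10.79, 10.71 and 10.72 and *Tbr2* cKO embryos at 10.83 and 10.89. The differences from control were -0.17 (SE 0.08, unadjusted p = 0.0603, adjusted p = 0.442) in *Tbr1/2* dKO (-0.25 without control replicate 3, adjusted p = 0.12), -0.06 (SE 0.07, adjusted p = 0.963) in *Tbr1* KO and 0.02 (SE 0.09, adjusted p = 0.974) in *Tbr2* cKO. Between *Tbr1/2* dKO and *Tbr2* cKO embryos the *Tet2* difference was -0.18 (SE 0.09, limma adjusted p = 0.834), which was not called. *Tet1* had no probeset of its own in the table of genes and was not analysed here.

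*Gadd45g*, a gene of the demethylation pathway that is also known from differentiating progenitors, had the largest called difference of the 9 members. It was at 10.91, 11.001 and 11.05 in *Tbr1/2* dKO and at 10.79 and 10.91 in *Tbr2* cKO embryos, against 10.44, 10.35 and 10.50 in controls. The *Tbr1* KO embryos, at 10.37, 10.26, 10.57 and 10.43, spread around the controls. Both genotypes without *Tbr2* were thus above all *Tbr1* KO and control embryos. Separation above every control was found for 8.58% of all genes in *Tbr1/2* dKO and 10.9% in *Tbr2* cKO, and the share also above all *Tbr1* KO embryos was not counted. The *Tbr1/2* dKO increase in *Gadd45g* was 0.56 (SE 0.08, limma adjusted p = 0.00307), a ratio of 1.47. The gene was 0.42 higher in *Tbr2* cKO (SE 0.09, unadjusted p = 0.000736), where the adjusted p was 0.0781, and it differed by -0.02 in *Tbr1* KO (95% interval -0.19 to 0.15, adjusted p = 0.986).

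The comparisons between mutants set this against loss of *Tbr1* alone. *Tbr1/2* dKO exceeded *Tbr1* KO embryos in *Gadd45g* by 0.58 (SE 0.08, limma adjusted p = 0.00379), and it was the only member called there, where 0.599% of all genes rose. In *Tbr2* cKO it was 0.44 higher than in *Tbr1* KO (SE 0.09, adjusted p = 0.0535), where 0.585% of all genes were called, and in *Tbr1/2* dKO 0.14 higher than in *Tbr2* cKO (95% interval -0.06 to 0.34, adjusted p = 0.914). The double mutant exceeded the sum of the single mutants by 0.16 (95% interval -0.10 to 0.42, adjusted p = 0.999), so that a departure was not detectable with these numbers of embryos. Without *Tbr1/2* dKO replicate 1, whose meningeal genes were high, the difference from control was 0.60 (adjusted p = 0.00718) and that from *Tbr1* KO 0.62 (adjusted p = 0.0101). Without *Tbr2* cKO replicate 1 the *Tbr2* cKO difference was 0.49, from a single array (adjusted p = 0.274), and *Tbr1/2* dKO exceeded *Tbr2* cKO by 0.07.

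Marker lists also differed between the genotypes, some in the way *Gadd45g* did and some not. The mean of 9 radial glia genes was 11.81 to 11.83 in *Tbr1/2* dKO, 11.77 and 11.78 in *Tbr2* cKO and 11.61 to 11.79 in *Tbr1* KO, against 11.61 to 11.70 in controls. Among the 9, *Pax6* alone rose in *Tbr1/2* dKO at an adjusted p under 0.05. Genes of intermediate progenitors other than *Eomes* had a mean of 11.38 to 11.43 in *Tbr1/2* dKO, 11.27 and 11.45 in *Tbr2* cKO and 10.97 to 11.07 in *Tbr1* KO, against 10.99 to 11.11 in controls, so that this list separated the genotypes in the way *Gadd45g* did. Of its 5 genes, *Neurog1*, *Insm1* and *Mfng* rose in *Tbr1/2* dKO. G2 and M phase genes (9 of 10 measured) averaged 10.98 to 11.34 in *Tbr1/2* dKO, 11.05 in both *Tbr2* cKO embryos and 10.81 to 11.12 in *Tbr1* KO, against 10.88 to 10.94 in controls, and none was called. The mean of 6 interneuron genes was 8.98 to 9.43 in *Tbr1/2* dKO, 9.28 and 9.31 in *Tbr2* cKO and 9.22 to 9.84 in *Tbr1* KO, against 9.45 to 9.80 in controls, and *Lhx6* fell in *Tbr1/2* dKO. The mean of 7 postmitotic neuron genes did not follow *Gadd45g*: it was 11.95 to 12.31 in *Tbr1/2* dKO, where *Bcl11b* and *Sox5* fell, 12.37 and 12.44 in *Tbr2* cKO and 12.26 to 12.55 in *Tbr1* KO, against 12.49 to 12.59 in controls. The part of cell numbers in the *Gadd45g* and *Dnmt3a* differences was not tested.

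**Figure D3:**
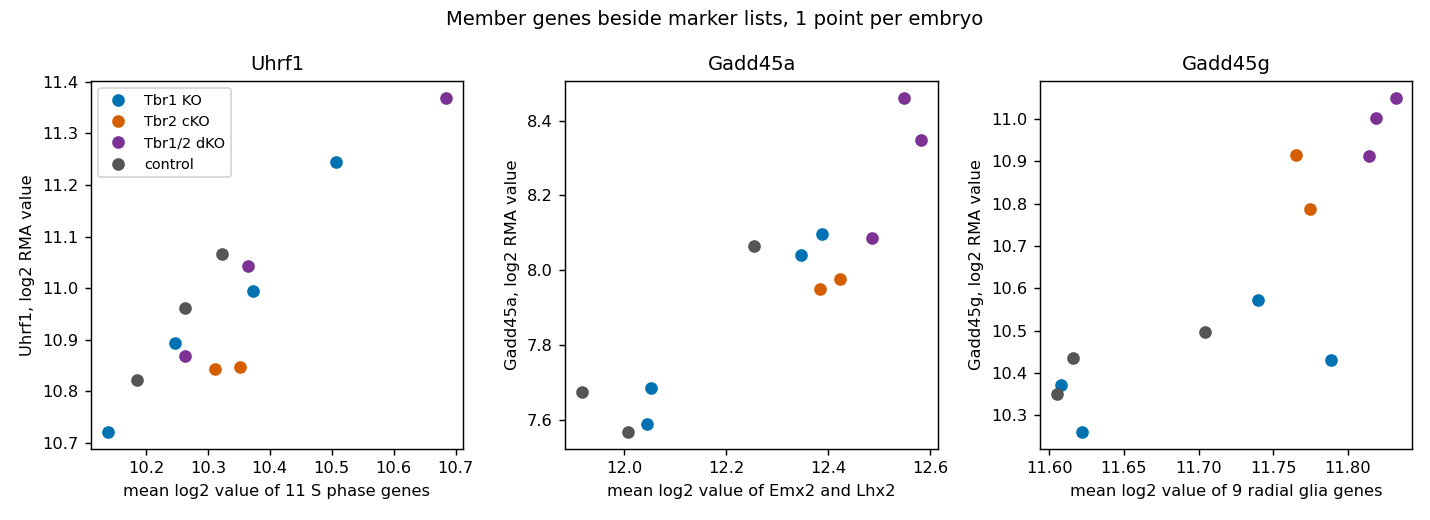
Log2 RMA value of *Uhrf1* against the mean log2 value of 11 S phase genes, of *Gadd45a* against that of *Emx2* and *Lhx2*, and of *Gadd45g* against that of 9 radial glia genes, with the member on the vertical axis and 1 point for each embryo. *Uhrf1* follows the S phase genes within genotypes. In *Gadd45g* all *Tbr2* cKO and *Tbr1/2* dKO embryos lie above the others. Their radial glia means do too, except that *Tbr1* KO replicate 4 (11.789) narrowly exceeds both *Tbr2* cKO embryos (11.775 and 11.765).

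The genes nearest to *Gadd45g* over the 12 arrays, each centred on its control mean, were *Rem2*, *Ptbp3* and *Maml3*, at root mean square differences of 0.08, 0.09 and 0.09 log2 units. *Rem2* averaged 0.04 above control for *Tbr1* KO, 0.41 for *Tbr2* cKO and 0.53 for *Tbr1/2* dKO. *Maml3* encodes a Notch coactivator, *Ptbp3* an RNA-binding protein and *Rem2* a small GTPase. The 250 bases before the start of *Gadd45g*, the member with the largest called difference, are shown with CpG in capitals:
*Gadd45g* start at chr13:51846425-51846674, plus strand (GRCm38.p6): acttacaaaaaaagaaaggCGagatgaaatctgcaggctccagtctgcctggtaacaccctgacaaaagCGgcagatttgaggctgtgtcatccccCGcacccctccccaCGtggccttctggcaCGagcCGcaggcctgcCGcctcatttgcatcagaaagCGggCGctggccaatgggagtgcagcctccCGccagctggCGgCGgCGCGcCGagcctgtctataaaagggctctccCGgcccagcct
This window holds 16 CpG, and 25.4% of all windows hold as many or more. The T-box letters GGTGTGA were searched on both strands, and 3.33% of all 32851 windows hold them. They were in none of the 13 windows of the 8 members searched, which says only that these letters are not there. The 13 windows held 2 to 51 CpG, and 12 of them held more than the median window. They are not all separate, since the *Dnmt3a* windows from 3806730 and from 3806910 overlap. The 32851 windows also cover genes that were not measured here, and measured genes alone were not compared.

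*Gadd45a*, the second member of its family here, was at 8.09, 8.46 and 8.35 in *Tbr1/2* dKO embryos, against 7.68, 7.57 and 8.06 in controls. *Tbr2* cKO embryos were at 7.98 and 7.95, and *Tbr1* KO embryos at 7.59, 7.69, 8.04 and 8.10. The 3 *Tbr1/2* dKO embryos were above every control, the lowest of them only just above control replicate 3, and 8.58% of all genes were separated in this direction. The gene was dim, with a mean of 7.96 over the arrays, where the median gene mean was 8.75 and the mean of *Gadd45g* 10.63. The difference in *Tbr1/2* dKO, 0.53, was almost as large as that of *Gadd45g*, but its SE was 0.16, against 0.08 for *Gadd45g*, and it was not called (unadjusted p = 0.00776, adjusted p = 0.149 from limma). It was 0.19 (95% interval -0.21 to 0.59, adjusted p = 0.814) in *Tbr2* cKO and 0.08 (95% interval -0.25 to 0.42, adjusted p = 0.974) in *Tbr1* KO. The *Tbr2* cKO value was 0.18 without *Tbr2* cKO replicate 1. Leaving out control replicate 2 gave 0.09, and leaving out the third control gave 0.34. Between *Tbr1/2* dKO and *Tbr1* KO embryos the difference was 0.45 (adjusted p = 0.283), and between *Tbr1/2* dKO and *Tbr2* cKO 0.34 (adjusted p = 0.87). Its departure from additivity was 0.25 (95% interval -0.27 to 0.78, adjusted p = 0.999). With array weights that departure was 0.015 and the *Tbr1* KO difference 0.25, neither called.

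*Gadd45a*, like *Uhrf1*, differed among embryos of 1 genotype along with marker lists. *Emx2*, a patterning gene high in medial and caudal cortex, was at 10.68, 10.69, 11.15 and 11.24 in the *Tbr1* KO embryos in the same order, at 11.31 and 11.21 in *Tbr2* cKO and at 11.39, 11.46 and 11.52 in *Tbr1/2* dKO, against 10.50, 10.66 and 11.05 in controls. The 2 *Tbr1* KO embryos and the 1 control embryo highest in *Emx2* were also the highest in *Gadd45a* of their genotype, and *Emx2* itself rose in *Tbr1/2* dKO by 0.72 (SE 0.17, limma adjusted p = 0.0447). In 12 of the 13 pairs of embryos of the same genotype *Gadd45a* was higher in the embryo with the higher radial glia mean and in 12 in that with the higher S phase mean, counts that 1.58% and 3.25% of all genes reached or passed. With the mean of the G2 and M phase genes this was so in 11 pairs (2.77% of all genes) and with that of *Emx2* and *Lhx2* in 11 (5.74%). With 9 cortical hem and choroid plexus genes it was so in 9 (20.5%). For *Uhrf1* and the radial glia mean it was so in 11 pairs (6.43%), for *Gadd45g* in 10 (14.1%) and for *Dnmt3a* in 5 (79.9%). *Gadd45a* and the mean of 7 postmitotic neuron genes mostly ran in opposite order, with the same order in 1 pair (99.4%). The hem and choroid plexus mean was 7.29, 7.31, 7.82 and 8.05 in *Tbr1* KO, 8.58 and 7.52 in *Tbr2* cKO and 7.83, 7.36 and 7.83 in *Tbr1/2* dKO, against 6.998, 7.35 and 7.77 in controls, and *Ttr*, a choroid plexus gene, was at 12.57 in *Tbr2* cKO replicate 1. Thus the same 3 *Tbr1* KO and control embryos were the highest of their genotypes in the hem list. Without *Tbr1/2* dKO replicate 1 the *Gadd45a* difference from control was 0.64 (limma adjusted p = 0.108), without control replicate 3 it was 0.68 (adjusted p = 0.0681) and without control replicate 2 it was 0.43 (adjusted p = 0.422). The part of *Emx2*-expressing tissue, cortical hem, radial glia and cycling cells in these values was not tested.

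Other genes of the pathway showed no called change. Of 37 further genes listed by role, 26 had a probeset of their own, and none of them was called in any mutant at an adjusted p under 0.05. At an unadjusted p under 0.05 there were 0, 1 and 4 of them (limma), where 6.51%, 10% and 12.3% of all genes passed. Among 7 writers and partners the largest difference in *Tbr1/2* dKO was that of *Hells*, a chromatin remodeller needed for DNA methylation, at 0.20 (SE 0.13, adjusted p = 0.6). Among 6 genes listed as readers it was that of *Mbd6*, named for a methyl-binding domain, and binding to methylated DNA was not examined here. *Mbd6* was at 11.19, 11.26 and 11.12 in *Tbr1/2* dKO and 11.23 and 11.05 in *Tbr2* cKO, against 10.94, 11.03 and 10.71 in controls. All embryos of both genotypes were above all controls, where 8.58% and 10.9% of all genes were, and the lower *Tbr2* cKO embryo only just exceeded the highest control. The *Mbd6* differences were 0.30 (SE 0.09, unadjusted p = 0.00606, adjusted p = 0.128 from limma) and 0.25 (SE 0.10, unadjusted p = 0.0305, adjusted p = 0.424). *Zbtb38*, a zinc finger reader, differed by -0.25 in *Tbr1/2* dKO (unadjusted p = 0.0278, adjusted p = 0.305). Among 13 erasers and repair genes the differences in *Tbr1/2* dKO ranged from -0.15 in *Smug1*, a DNA glycosylase (unadjusted p = 0.035, adjusted p = 0.344), to 0.29 in *Idh1*, the isocitrate dehydrogenase that makes the cosubstrate of Tet enzymes (unadjusted p = 0.0482, adjusted p = 0.398). *Gadd45b*, the third member of its family, differed by 0.19 for *Tbr1* KO, -0.01 for *Tbr2* cKO and 0.13 for *Tbr1/2* dKO, none called. *Zbtb38* and *Gadd45b* were named after their values were seen. In *Tbr1* KO the largest differences of each role were those of *Mat2b* (0.12), *Mbd6* (0.14) and *Apobec2* (-0.22). The medians of the 26 genes were 0.04 for *Tbr1* KO, -0.02 for *Tbr2* cKO and 0.05 for *Tbr1/2* dKO.

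**Figure D4:**
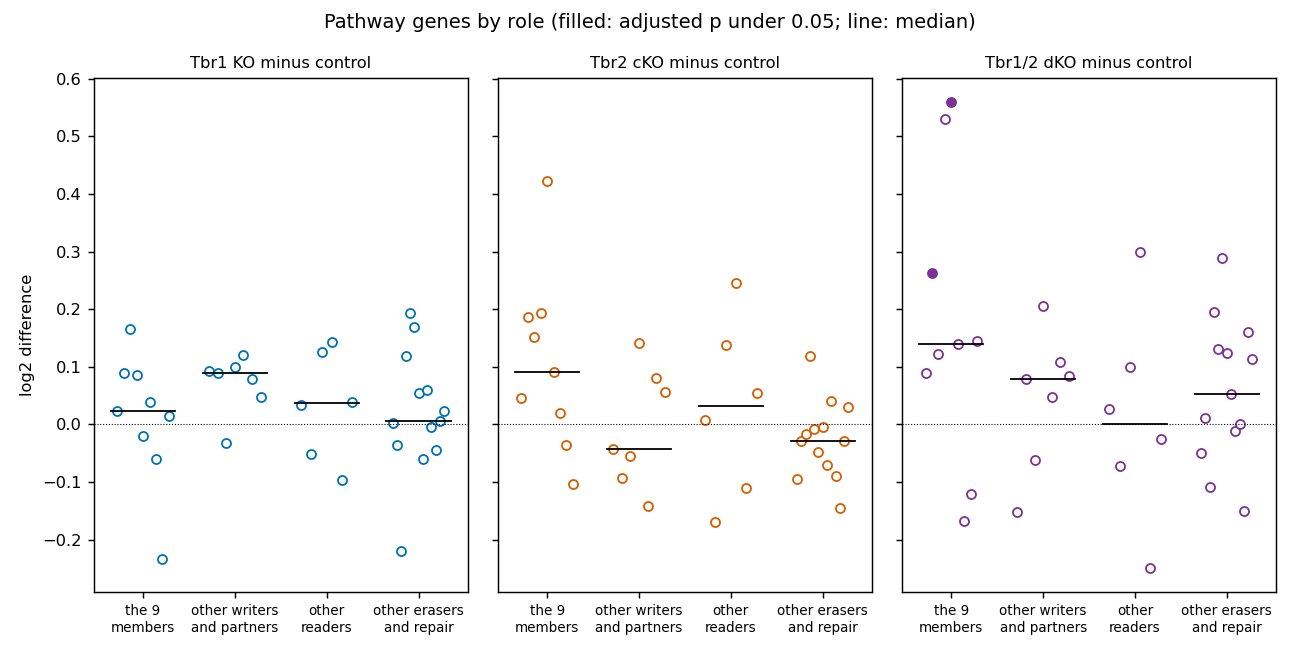
Log2 difference from control (vertical axis) of the 9 members and of 26 other genes of the pathway, grouped by role, with a panel for each mutant, where each point is a gene and each line a median. The 2 filled points, with an adjusted p under 0.05, are members in *Tbr1/2* dKO, and the other roles range from -0.25 to 0.30 there.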

How the data were processed

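The authors processed the arrays with RMA in oligo (no source used here gives versions) and deposited log2 values for 23332 probesets in each of 12 arrays. Of these probesets, 14996 had 1 gene symbol, 1019 had several and 7317 had none. The first were kept, with the highest mean for the 135 genes with more than 1, which left 14860 genes. The deposited values were not normalized again. One linear model with the 4 genotypes and no covariate was fitted to all genes in R 4.3.3 with limma 3.58.1 (lmFit and eBayes, 8 residual degrees of freedom, prior 2.89), with Benjamini-Hochberg adjustment over all genes and a threshold of 0.05, and was tested on simulated data. Tables and plots used Python 3.11.15, pandas 2.3.3, numpy 2.4.6 and matplotlib 3.10.9. The number of arrays limits precision, and no test compared values of different genes. The members, gene lists and tests were chosen with earlier results of these data known. All members were described, with other pathway genes named where called or where their difference was the largest of their role, and the 3 genes closest in pattern to each called member. Alternatives were other probeset sets, filters, normalizations, array weights, a replicate block and leaving out each array. Same-numbered *Tbr1/2* dKO and *Tbr1* KO embryos deviated together (r of 0.18 to 0.38 in 3 pairs), while those of the other genotypes did not in every pair, so that the block is an alternative. Promoters came from RefSeq (GRCm38.p6). Other assays of the study were not analysed here.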

Additional observations from a re-analysis of the deposited data

How the results depend on the processing

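Of 826 recomputed values of 40 single-gene results, 788 kept direction and side of the threshold, 11 lost the call, 12 gained one and 15 changed sign. *Gadd45g* in *Tbr1/2* dKO was called under every alternative run. Of the 2 members called in *Tbr1/2* dKO, 1 was left with all probesets, arrays centred on their medians, only the 2 groups fitted or the replicate block, since *Dnmt3a* had an adjusted p of 0.0758, 0.0606, 0.141 and 0.0565 there (limma), and 4 passed without adjustment. Leaving out 1 array gave 1 to 2. In *Tbr1* KO the count of 0 became 1 with array weights and 2 without adjustment. In *Tbr2* cKO, and between *Tbr2* cKO and *Tbr1* KO, 0 became 1 (*Gadd45g*) with genes above the median, quantile normalization, centring, a trended robust fit, array weights or an adjusted p under 0.1, and 2 without adjustment. Between *Tbr2* cKO and *Tbr1* KO, leaving out 1 array gave 0 to 1, with 1 without *Tbr1* KO replicate 3 (adjusted p = 0.0376). Between *Tbr1/2* dKO and *Tbr1* KO, 1 became 3 without adjustment. For the other pathway genes 0 became 1 in *Tbr2* cKO and 4 in *Tbr1/2* dKO without adjustment. Signs changed with array weights for *Gadd45g* in *Tbr1* KO (0.043) and *Tet2* in *Tbr2* cKO (-0.031), and with the replicate block for *Tet2* in *Tbr2* cKO (-0.024), *Dnmt1* in *Tbr1* KO (-0.002) and *Uhrf1* in *Tbr1* KO (-0.08). Leaving out 1 array gave ranges that include 0 for *Dnmt1* (-0.009 to 0.067), *Uhrf1* (-0.08 to 0.095), *Gadd45a* (-0.016 to 0.233) and *Gadd45g* (-0.074 to 0.03) in *Tbr1* KO, and for *Dnmt1* (-0.005 to 0.096) and *Tet2* (-0.067 to 0.07) in *Tbr2* cKO. The cause of these changes was not tested. Over all genotypes it stayed unclear whether replicate numbers mark pairs. Deviations correlated above 0.1 in 6 of 15 same-numbered pairs (-0.12 to 0.38) and in 6 of 38 others, and 5 of 12 arrays correlated best with their own number. The 2 *Tbr2* cKO arrays deviate in mirror image from their mean, so that their pairs are not separate evidence. For *Tbr1* KO and control, 2 of 3 same-numbered pairs correlated above 0.1 (0.03 to 0.2). For *Tbr1/2* dKO and *Tbr1* KO all 3 same-numbered pairs did (0.18 to 0.38), and with the block *Gadd45g* remained the 1 member called between these genotypes (0.59, limma adjusted p = 0.0169). The filter on dim genes removed *Dnmt3b* and *Gadd45a*, which gave no value there.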
